A study of Mus musculus with 2 samples.

Results

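The endothelin and nitric oxide pathway was followed here through 10 genes, which were Edn1, Ece1, Ednra, Ednrb, Nos3, Gucy1a1, Gucy1b1, Pde5a, Npr1 and Npr3. They were taken by symbol from the 31058 features of the deposited tables, and all 10 were present in both libraries. The study profiled cells of mouse kidney glomeruli by 3′ single-cell RNA sequencing on the 10x Chromium platform, with 1 library from a mouse titled female and 1 from a mouse titled male. Both animals were C57Bl/6, healthy, and carried Pax2.rtTA;TetO.Cre;R26.Confetti, in which a Pax2-driven, doxycycline-dependent activator switches on Cre and Cre recolours cells through the Confetti reporter. Both received doxycycline at 19 days of age and were killed at 30 days, so the alleles and the drug were common to the 2 groups, and the series describes them as wild type. Each group was 1 animal, so no difference between the libraries has a replicate check and no test was possible.

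Endothelin-1 is a peptide made mainly by endothelium. It is released from an inactive precursor by endothelin-converting enzyme and acts on the ETA receptor, which contracts smooth muscle and mesangial cells, and on the ETB receptor, which in endothelium leads to nitric oxide release and clears the peptide. Nitric oxide from the endothelial synthase activates soluble guanylate cyclase in neighbouring contractile cells, and natriuretic peptides reach the same second messenger, cGMP, through a membrane cyclase. In the glomerulus these signals set the tone of the arterioles and of the mesangium and act on the podocyte.

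After barcodes with over 20% mitochondrial counts or under 500 genes were removed, 4909 cells labelled female and 4442 labelled male remained, with medians of 10672 and 9616 UMIs (the tagged transcript molecules counted) per cell. Xist, which is transcribed from the inactive X chromosome, stood at 0.682 CPM (counts per 1000000 UMIs) labelled female and at 1593 CPM labelled male, and the Y-linked genes stood at 214 and 0.0206 CPM, so both libraries went against their titles and are named by label throughout. The libraries shared 10 barcodes. Marker genes named clusters as podocyte-like (3471 cells labelled female, 2893 labelled male), mesangial-like (241 and 175), smooth muscle or renin-like (43 and 62), glomerular endothelial-like (113 and 89) and arterial endothelial-like (83 and 83). Some cells held defining markers of a class other than their own, with 2 or more UMIs of each of 2 markers. There were 23 and 19 such cells in the arterial endothelial-like class, 11 and 2 in the glomerular endothelial-like class, 15 and 15 in the smooth muscle or renin-like class, 33 and 9 in the mesangial-like class and 0 in the podocyte-like class. Levels are given in CPM of all UMIs of a class in a library, as the value labelled female and then the value labelled male. Intervals are exact 95% intervals of counting error only, and a level in 3′ data is compared between cell classes for the same gene, not between genes.

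The 10 genes differed in the class where their level was highest. Edn1 and Nos3 were highest in arterial endothelial-like cells, Ece1 and Ednrb in glomerular endothelial-like cells, Ednra in smooth muscle or renin-like cells, Gucy1a1 and Pde5a in mesangial-like cells, and Npr1 and Npr3 in podocyte-like cells. Gucy1b1 was level between smooth muscle or renin-like and mesangial-like cells as clustered. The highest of the 5 classes was the same in both libraries for 10 of 10 genes, where 66.7% of the 8215 genes at 20 CPM or more in their highest class in both libraries had the same. The level in the highest class was at least 4 times that in the next class in both libraries for 2 of the 10 genes, Edn1 and Ednra, against 3.99% of those 8215 genes.

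The starts of these genes are shown for 4 that peak in different classes. The RefSeq promoter table used here (GRCm38.p6) matched 9 of the 10 genes, all but Nos3. For 5 of them a window of 250 bases before a start held no annotated exon, and the 4 windows below come from these. The Ednrb window lies inside the span given for that gene further below, so it precedes an internal start. Capitals mark letters that match 1 of 7 motifs searched on both strands, and positions count back from the base before the start. The motifs were the TATA box TATAAA (in 12.4% of 32851 mouse promoter windows of the same length), the GC box GGGCGG (32.7%), the AP-1 motif TGANTCA (6.75%), the GATA motif AGATAA (9.99%), the hypoxia response core ACGTG (16.6%), the TEAD core GGAATG (12.6%) and the CArG box (1.47%). A match describes the letters only.
Edn1, arterial endothelial-like, chr13:42301226-42301475, plus strand: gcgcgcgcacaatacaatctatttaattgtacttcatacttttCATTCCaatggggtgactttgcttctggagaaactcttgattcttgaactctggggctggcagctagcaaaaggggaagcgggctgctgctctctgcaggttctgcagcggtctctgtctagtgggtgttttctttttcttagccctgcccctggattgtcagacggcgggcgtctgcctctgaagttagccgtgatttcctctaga
Ednrb, glomerular endothelial-like, chr14:103843702-103843951, minus strand: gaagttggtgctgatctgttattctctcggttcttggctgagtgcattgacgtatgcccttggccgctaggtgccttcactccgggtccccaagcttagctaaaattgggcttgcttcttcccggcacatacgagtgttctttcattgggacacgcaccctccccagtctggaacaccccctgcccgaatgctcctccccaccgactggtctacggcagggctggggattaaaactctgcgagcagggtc
Gucy1b1, smooth muscle or renin-like and mesangial-like, chr3:82074712-82074961, minus strand: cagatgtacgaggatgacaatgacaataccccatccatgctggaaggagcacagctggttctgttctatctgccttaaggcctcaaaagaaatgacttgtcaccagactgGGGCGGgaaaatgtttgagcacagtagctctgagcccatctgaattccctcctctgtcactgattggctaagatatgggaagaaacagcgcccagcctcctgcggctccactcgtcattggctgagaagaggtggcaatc
Npr1, podocyte-like, chr3:90465867-90466116, minus strand: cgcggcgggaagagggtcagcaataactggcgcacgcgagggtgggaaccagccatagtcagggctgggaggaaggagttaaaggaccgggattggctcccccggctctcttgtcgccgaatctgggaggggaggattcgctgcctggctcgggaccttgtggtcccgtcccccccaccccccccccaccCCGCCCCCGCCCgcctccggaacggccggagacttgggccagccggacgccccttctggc
The Edn1 window held the TEAD core on the reverse strand at -207 to -202, and the Gucy1b1 window a GC box at -140 to -135. In the Npr1 window the reverse strand held GC boxes at -60 to -55 and at -54 to -49, and the Ednrb window matched none of the 7. The GC content was 70.4% for Npr1, 56.8% for Ednrb, 51.2% for Gucy1b1 and 50.4% for Edn1, beside a median of 52.4% over all windows.

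Edn1 (chr13:42301476-42307990, plus strand, GRCm38) encodes the endothelin-1 precursor. Its level in arterial endothelial-like cells was 321 CPM (288 to 358) labelled female and 372 CPM (332 to 414) labelled male. Glomerular endothelial-like cells held 36.1 and 73.2 CPM, mesangial-like cells 23.8 and 26.4, smooth muscle or renin-like cells 10.2 and 0, and podocyte-like cells 1.96 and 1.26. Arterial endothelial-like cells were thus high in both libraries and did not overlap any other class. The step from glomerular to arterial endothelial-like cells was 8.90-fold (6.6 to 12.2) labelled female and 5.08-fold (3.78 to 6.94) labelled male. Glomerular endothelial-like cells exceeded mesangial-like cells by 1.52-fold (1.03 to 2.24) and 2.77-fold (1.81 to 4.25), and mesangial-like and smooth muscle or renin-like cells were not separated labelled female (2.32-fold, 0.863 to 8.78). Outside the 5 classes, parietal epithelial-like cells of Bowman's capsule held 50.04 and 60.6 CPM. An Edn1 UMI was found in 71.1% and 78.3% of arterial endothelial-like cells, and in 53.0% of them in either library once each cell was thinned to 3000 UMIs. Podocyte-like cells, which had more UMIs per cell (medians of 11017 and 10078 against 9812 and 7914), held an Edn1 UMI in 1.58% and 0.899%, or 0.432% and 0.449% thinned.

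Few capillary cells carried most of the Edn1 signal of the glomerular endothelial-like class. The 5 cells with the most UMIs held 56.0% and 63.5% of the Edn1 UMIs of that class. Cells with 2 or more UMIs of Sox17, a transcription factor of arterial endothelium, were 45 of 113 and 30 of 89 and held 76.0% and 65.4% of them. The Edn1 level was 48.5 and 120 CPM in these Sox17-positive cells and 19.9 and 42.3 CPM in the others, a split that was chosen after Edn1 values were seen. Mesangial-like cells kept 20.7 and 25.8 CPM of Edn1 after cells with markers of another class were left out, and 0 and 5 of its 63 and 43 UMIs there were in cells with 2 or more UMIs of Pecam1, an endothelial adhesion molecule.

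**Figure D1:**
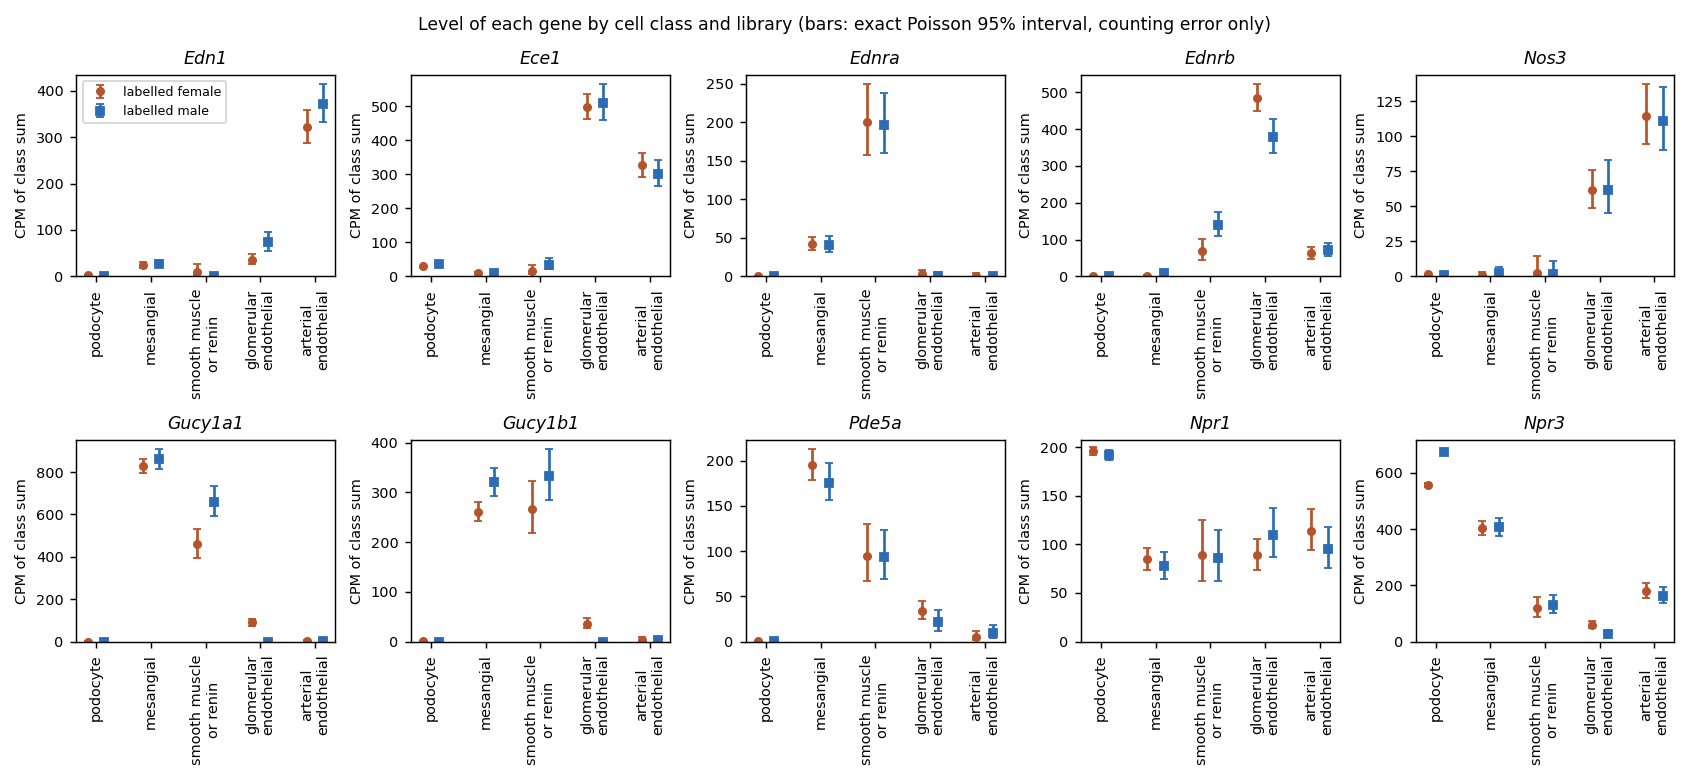
Level of each of the 10 genes in CPM of the class sum (vertical axes, from 0, each on its own scale) in the 5 cell classes, as circles for the library labelled female and squares for the library labelled male, with exact Poisson 95% intervals. Edn1 stands at 321 and 372 CPM in arterial endothelial-like cells, Ednra at 200 and 196 in smooth muscle or renin-like cells and Gucy1a1 at 828 and 860 in mesangial-like cells.

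Ece1 (chr4:137862237-137965229, plus strand) encodes the membrane protease that releases endothelin-1 from its precursor. It was an endothelial gene in these cells, at 497 CPM (461 to 536) and 510 CPM (459 to 565) in glomerular endothelial-like cells and 326 (292 to 363) and 302 (267 to 341) in arterial endothelial-like cells. The glomerular class exceeded the arterial class by 1.52-fold (1.34 to 1.74) and 1.69-fold (1.44 to 1.99), so the enzyme's order was the reverse of its substrate's. Without cells that held markers of another class the values were 566 and 527 against 454 and 393 CPM. Podocyte-like cells held 29.2 and 34.7 CPM, lower than arterial endothelial-like cells by 11.2-fold (9.89 to 12.6) and 8.71-fold (7.59 to 9.96), and did not differ from smooth muscle or renin-like cells (15.4 and 34.3 CPM) beyond the counting error. An Ece1 UMI was seen in 77.9% and 78.7% of thinned glomerular endothelial-like cells, in 59.0% and 60.2% of arterial endothelial-like cells and in 8.35% and 10.4% of podocyte-like cells.

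The endothelin receptors were split between cell types. Ednra (chr8:77663031-77724464, minus strand) encodes ETA, the contractile receptor, and stood at 200 CPM (158 to 249) and 196 CPM (160 to 238) in smooth muscle or renin-like cells. Mesangial-like cells held 41.9 and 40.6 CPM, lower by 4.77-fold (3.52 to 6.43) and 4.83-fold (3.51 to 6.68). This step depended on the typing. With each cell typed by its own marker score, Ednra stood at 24.4 and 51.0 CPM in smooth muscle or renin-like cells. Mesangial-like cells then became its highest class labelled female. The same typing raised Npr3 in smooth muscle or renin-like cells from 118 and 131 to 409 and 470 CPM, so the class did not hold the same cells. Which cells it gained was not tested. Both endothelial classes, as clustered, were at or near 0 CPM of Ednra. Arterial endothelial-like cells had no Ednra UMI in either library, which allows a level of up to 2.94 and 3.43 CPM, and the 5 UMIs of the glomerular endothelial-like class labelled female all lay in cells with markers of another class. Podocyte-like cells, the largest class, held 8 and 10 Ednra UMIs in all, or 0.182 and 0.308 CPM.

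Ednrb (chr14:103814625-103844402, minus strand) encodes ETB. Glomerular endothelial-like cells held 484 CPM (448 to 522) and 379 CPM (335 to 427), and arterial endothelial-like cells 62.7 and 70.9 CPM. In the library labelled male 69.4% of the arterial UMIs were in 5 cells, and the arterial level there was 30.5 CPM without cells that held markers of another class. Smooth muscle or renin-like cells also held the gene, at 69.1 CPM (45.6 to 101) and 139 CPM (109 to 175), lower than glomerular endothelial-like cells by 7.01-fold (4.77 to 10.7) and 2.72-fold (2.10 to 3.58). Of the smooth muscle or renin-like cells with an Ednrb UMI, 1 of 16 and 0 of 34 had 2 or more UMIs of Pecam1. The order of smooth muscle or renin-like and arterial endothelial-like cells was not separated labelled female (1.10-fold, 0.676 to 1.75) and was labelled male (1.96-fold, 1.38 to 2.80). Mesangial-like cells held 0.754 and 8.0 CPM, podocyte-like cells 0.0682 and 0.123 CPM.

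As clustered, smooth muscle or renin-like cells were therefore the class with both receptors. This too depended on the typing. With each cell typed by marker score the class held 24.4 and 51.0 CPM of Ednra and 7.84 and 35.8 CPM of Ednrb. The shares below are of the class as clustered. An Ednra UMI and an Ednrb UMI were found together in 30.2% and 45.2% of these cells (6.98% and 17.7% thinned), beside 27.7% and 45.1% as the product of the separate shares (4.87% and 16.6% thinned). Detection of both receptors in a cell was close to that product in either library. Renin cells make the hormone that starts the angiotensin cascade. Among the 28 and 47 smooth muscle or renin-like cells without markers of another class, those with 100 or more Ren1 UMIs numbered 5 and 18 and those under 100 numbered 23 and 29, with 1 and 4 of all these cells between 50 and 200. This limit was chosen after the values were seen and marks a range, not a cell type. The Ednrb level was 105 and 204 CPM in the Ren1-high cells and 84.7 and 117 CPM in the others, with overlapping intervals in both libraries, and the Ednra level was 235 and 175 against 280 and 282 CPM.

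Nos3 (chr5:24364810-24384474, plus strand) encodes endothelial nitric oxide synthase. Outside the endothelial classes, podocyte-like cells held 1.41 and 1.14 CPM, and each mesangial-like or smooth muscle or renin-like sum held 1 to 4 UMIs. Arterial endothelial-like cells held 115 CPM (94.8 to 137) and 111 CPM (89.96 to 135), beside 61.4 (49.0 to 75.9) and 62.0 (45.0 to 83.2) in glomerular endothelial-like cells. The arterial class was higher by 1.87-fold (1.40 to 2.50) and 1.79-fold (1.24 to 2.62). Unlike Edn1, the Nos3 level within the glomerular class was close in cells with and without Sox17, at 63.8 and 66.8 CPM with it and 58.2 and 58.7 CPM without it. Edn1 and Nos3 UMIs were found together in 45.8% and 44.6% of arterial endothelial-like cells, beside 46.2% and 41.5% as the product of the shares. The exons of Nos3 share 1040 bases with Gm15587 and 294 bases with Atg9b on the opposite strand, those of Npr1 share 559 bases with Gm16048, and those of Edn1 share 35 bases with Gm47118. These neighbours are also among the counted features, and whether the counting used strand is not known from the sources used here.

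Soluble guanylate cyclase, the nitric oxide sensor, is a dimer of an alpha and a beta subunit. Its major genes lie next to each other on chromosome 3, Gucy1a1 for the alpha subunit at chr3:82092427-82145789 and Gucy1b1 for the beta subunit at chr3:82032006-82074689, both on the minus strand. Gucy1a1 stood at 828 CPM (793 to 863) and 860 CPM (816 to 907) in mesangial-like cells and at 461 (396 to 533) and 661 (593 to 734) in smooth muscle or renin-like cells. Gucy1b1 stood at 261 (242 to 282) and 320 (294 to 349) in mesangial-like cells and at 266 (218 to 323) and 333 (286 to 386) in smooth muscle or renin-like cells. The alpha subunit was thus higher in mesangial-like cells, by 1.80-fold (1.54 to 2.10) and 1.30-fold (1.16 to 1.47), while the beta subunit did not differ between these classes beyond the counting error, at 1.02-fold (0.821 to 1.25) and 1.04-fold (0.871 to 1.24). Without cells that held markers of another class the Gucy1a1 values were 954 and 914 CPM in mesangial-like cells and 598 and 727 CPM in smooth muscle or renin-like cells. With each cell typed by marker score, smooth muscle or renin-like cells held 60.2 and 175 CPM of Gucy1a1 and 35.3 and 88.3 CPM of Gucy1b1. Mesangial-like cells were then the highest class of both genes in both libraries.

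UMIs of both subunits were found in 89.2% and 89.7% of mesangial-like cells and in 83.7% and 77.4% of smooth muscle or renin-like cells. At 3000 UMIs per cell the shares were 50.2% and 53.7%, and 46.5% and 50%. In podocyte-like cells a Gucy1a1 UMI was found in 0.288% and 0.311% of cells and a Gucy1b1 UMI in 0.230% and 0.0691%. Podocyte-like cells were deeper (medians of 11017 and 10078 UMIs) than mesangial-like cells (8564 and 7369). The podocyte-like levels were 0.25 and 0.277 CPM of Gucy1a1 and 0.182 and 0.0616 CPM of Gucy1b1. Labelled female these were the lowest of the 5 classes as clustered. Gucy1a1 was not separated there from arterial endothelial-like cells (7.83-fold, 0.844 to 35.9). Glomerular endothelial-like cells held 0 UMIs of either gene labelled male, and labelled female once cells with markers of another class were left out. Those 0 counts, from far fewer cells, do not place them above or below podocyte-like cells.

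In the library labelled female, glomerular endothelial-like cells showed 90.2 CPM of Gucy1a1 and 36.1 CPM of Gucy1b1. All 125 and 50 of these UMIs came from 5 cells, and the same 5 cells were the ones with 2 or more UMIs of Pdgfrb, a receptor of mesangial cells and pericytes. The other cells of the class had 0 UMIs of either gene. The 5 cells held 392 CPM of Gucy1a1 and 157 CPM of Gucy1b1. They were on average far deeper than the class median of 7960 UMIs, so they weighed more in its sums. As the mean of the CPM of cells, the class stood at 15.4 CPM of Gucy1a1 and 8.46 CPM of Gucy1b1. The summed level of the mesangial markers in that class was 1511 CPM labelled female and 60.5 CPM labelled male, where Gucy1a1 and Gucy1b1 both stood at 0, which allows up to 4.22 CPM. Arterial endothelial-like cells held 1.96 and 2.29 CPM of Gucy1a1 and 3.92 and 3.43 CPM of Gucy1b1, which is 2 to 4 UMIs each.

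**Figure D2:**
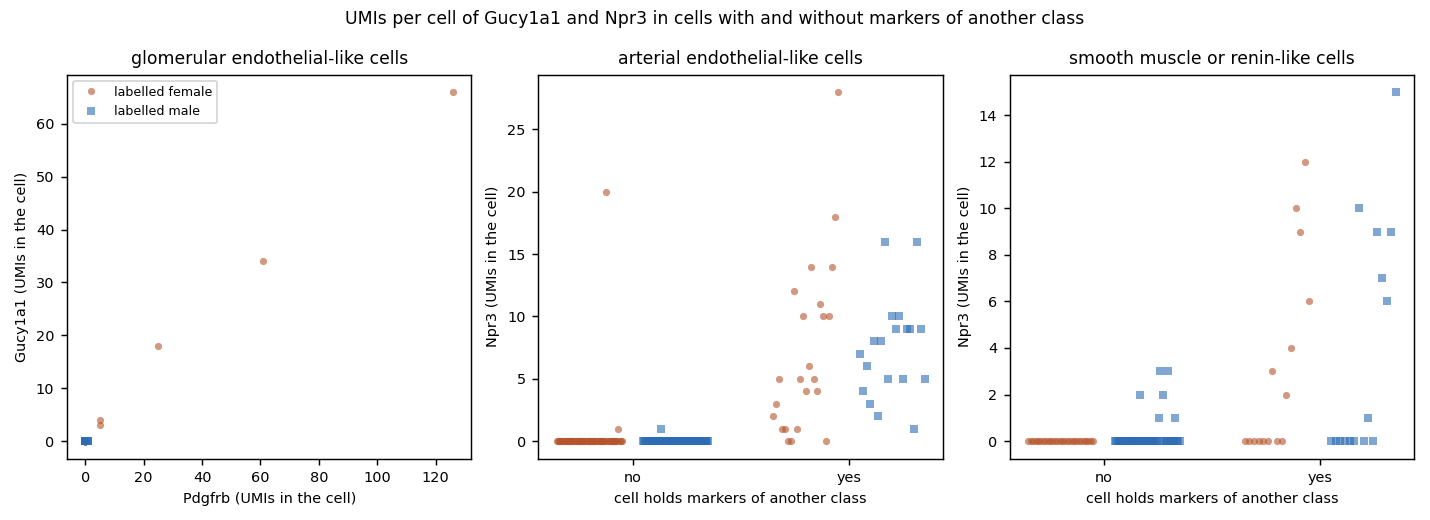
UMIs per cell of Gucy1a1 against Pdgfrb in glomerular endothelial-like cells, and of Npr3 in arterial endothelial-like and in smooth muscle or renin-like cells, split by whether the cell holds markers of another class (linear axes, 1 point per cell, circles labelled female and squares labelled male). The 5 cells with Gucy1a1 are those with 2 or more Pdgfrb UMIs, and 164 and 142 of the arterial Npr3 UMIs lie in the 23 and 19 cells with markers of another class.

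Pde5a (chr3:122728947-122859374, plus strand) encodes phosphodiesterase 5, which breaks down cGMP and is the target of sildenafil. Its level was 195 CPM (179 to 213) and 176 CPM (156 to 198) in mesangial-like cells and 94.7 (66.7 to 131) and 93.3 (69.0 to 123) in smooth muscle or renin-like cells. Mesangial-like cells were higher by 2.06-fold (1.47 to 2.96) and 1.89-fold (1.39 to 2.61), the same direction as Gucy1a1. Glomerular endothelial-like cells held 33.9 and 21.1 CPM, but 11.1 and 22.1 CPM without cells that held markers of another class. Arterial endothelial-like cells held 4.90 and 9.15 CPM and podocyte-like cells 0.773 and 1.05 CPM. Parietal epithelial-like cells held 44.5 and 24.3 CPM. In smooth muscle or renin-like cells of the library labelled male, without those holding markers of another class, Pde5a stood at 29.1 CPM (7.93 to 74.5; 4 UMIs) in the Ren1-high cells and at 174 CPM (122 to 239) in the others. The library labelled female did not show this split, at 157 CPM (57.5 to 341) and 132 CPM (85.6 to 195).

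The natriuretic peptide receptors were the podocyte genes of the set. Npr1 (chr3:90450591-90465866, minus strand) encodes the membrane guanylate cyclase that binds atrial and brain natriuretic peptide. It stood at 197 CPM (192 to 201) and 192 CPM (187 to 197) in podocyte-like cells. The other classes lay between 77.5 and 114 CPM, and no neighbours among them in the order of levels were separated in both libraries. Podocyte-like cells exceeded arterial endothelial-like cells by 1.73-fold (1.44 to 2.10) and 2.02-fold (1.63 to 2.54). Without cells that held markers of another class, Npr1 was 91.0 and 105 CPM in glomerular endothelial-like, 83.7 and 66.3 in arterial endothelial-like, 70.4 and 62.8 in smooth muscle or renin-like and 63.0 and 74.7 in mesangial-like cells. Parietal epithelial-like cells were lower, at 23.1 and 13.1 CPM. The thinned share of cells with an Npr1 UMI was 43.4% in podocyte-like cells of either library, 26.5% and 31.5% in glomerular endothelial-like cells and 3.9% and 3.77% in parietal epithelial-like cells.

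Npr3 (chr15:11839896-11907287, minus strand) encodes the clearance receptor, which has no cyclase and removes natriuretic peptides. Podocyte-like cells held 556 CPM (549 to 563) and 676 CPM (667 to 685) and mesangial-like cells 404 (380 to 429) and 407 (376 to 439). The step between them was 1.38-fold (1.29 to 1.46) and 1.66-fold (1.54 to 1.80). The mesangial level was 379 and 389 CPM without cells that held markers of another class, so it did not rest on those cells. Parietal epithelial-like cells held 385 and 536 CPM. An Npr3 UMI was found in 77.0% and 84.2% of thinned podocyte-like cells and in 60.6% and 57.1% of thinned mesangial-like cells. It was found in 0 of the 10 and 22 thinned proximal tubule-like cells, a class that should lack the gene. That class was deeper before thinning (medians of 23253 and 18343 UMIs against 11017 and 10078), but depth was made equal by thinning and adds nothing to the 0. With so few cells the 0 sets no close limit on stray Npr3 UMIs.

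In the arterial endothelial-like, smooth muscle or renin-like and glomerular endothelial-like classes most Npr3 UMIs lay in cells with markers of another class. Arterial endothelial-like cells showed 181 and 164 CPM, of which 88.6% and 99.3% of the UMIs were in such cells. Those cells numbered 23 and 19 of 83 in each library, and the level was 33.8 and 1.79 CPM in the rest. The 33.8 CPM rested largely on 1 cell with 20 Npr3 UMIs, singled out after its value was seen. Smooth muscle or renin-like cells showed 118 and 131 CPM, of which 100% and 82.6% of the UMIs were in the 15 and 15 cells with markers of another class. The rest held 0 UMIs labelled female, which allows a level of up to 13.2 CPM, and 34.2 CPM labelled male. Arterial endothelial-like and smooth muscle or renin-like cells were not separated labelled male (1.24-fold, 0.928 to 1.68). Of the 12 UMIs in the rest labelled male, 11 lay in 5 of the 18 Ren1-high cells (80.0 CPM, 39.9 to 143) and 1 in the 29 others. Glomerular endothelial-like cells showed 59.9 and 26.8 CPM, and 5.06 and 10.3 CPM without cells that held markers of another class. The order of the endothelial classes for Npr3 turned with the clustering. At a mitochondrial limit of 10% glomerular endothelial-like cells stood at 147 and 156 CPM and arterial endothelial-like cells at 12.9 and 17.8 CPM, and with the member and pathway genes kept in the clustering at 150 and 156 against 13.1 and 17.8 CPM.

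**Figure D3:**
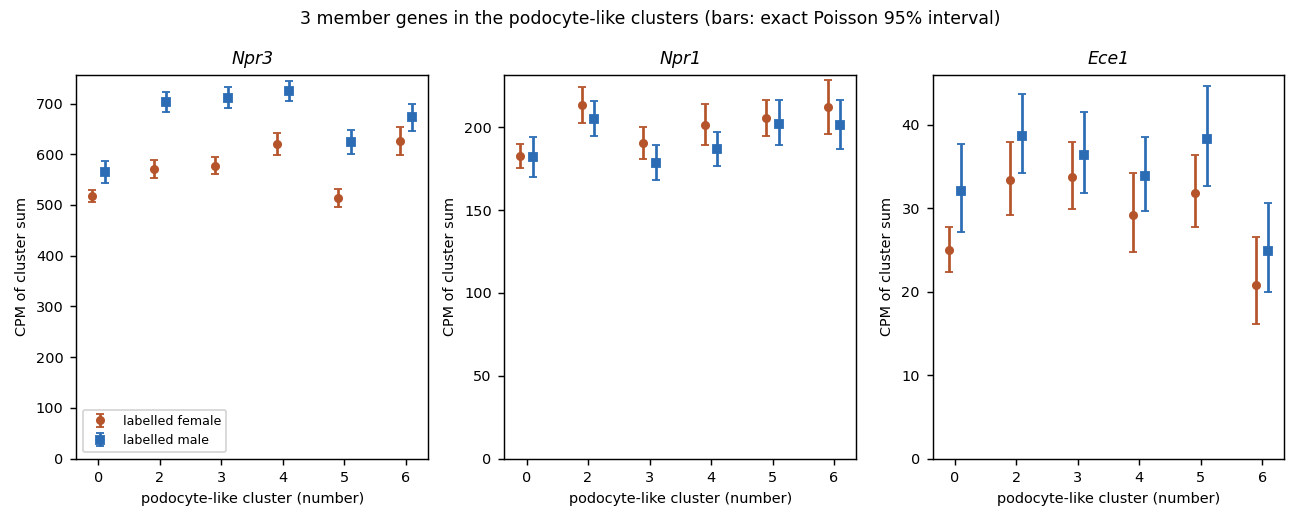
Level of Npr3, Npr1 and Ece1 in CPM of the cluster sum (vertical axes, from 0) in the 6 podocyte-like clusters by number, with exact Poisson 95% intervals, circles for the library labelled female and squares for the library labelled male. The Npr3 value labelled female lies below the value labelled male in 6 of 6 clusters, and Npr1 varies between 178 and 213 CPM.

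Over podocyte-like clusters the natriuretic receptor genes had a narrower range than Ece1 and Edn1, which also held fewer UMIs. Labelled female the class held 8640 UMIs of Npr1 and 24461 of Npr3, against 1282 of Ece1 and 86 of Edn1. A range widens with counting error, so whether these genes truly differed in variation was not tested. Over the 6 clusters named podocyte-like Npr1 ranged from 182 to 213 CPM labelled female and from 178 to 205 labelled male, and Npr3 from 513 to 625 and from 564 to 724. Cluster 0, led by Atf3 and Nr4a1, held the lowest Npr3 level labelled male and cluster 5, with Jun, Egr1 and Fosb among its leading genes, the lowest labelled female. Ece1 was lowest in cluster 6, at 20.8 and 24.9 CPM, and reached 33.7 and 38.7 CPM in its highest clusters, a range of 1.62- and 1.56-fold. Edn1 was highest in cluster 0 in both libraries, at 3.54 CPM (2.62 to 4.68) and 2.14 CPM (1.03 to 3.93), and lowest at 0.731 CPM (0.237 to 1.71; 5 UMIs) and 0.553 CPM (0.0669 to 2.0; 2 UMIs), so its intervals were apart only labelled female. Clusters 1 and 8 also had 10 podocyte markers but were left unnamed, since markers of other cell types led them, and stand outside these ranges. Cluster 1, led by haemoglobin genes, held Npr1 at 190 and 199 CPM and Npr3 at 642 and 735 CPM. Cluster 8, with 152 and 127 cells and led by Cst12, Igfbp6 and Dkk3, held less Npr1, at 110 and 129 CPM, with Npr3 at 467 and 611 CPM and Pde5a at 21.6 and 12.8 CPM. The libraries filled the clusters unequally, with 1026 and 387 cells in cluster 0 and 469 and 641 in cluster 4, so the library difference was also read within clusters. Npr3 was lower labelled female in 6 of 6 named clusters. Npr1 was higher labelled female in 6 of 6 clusters, by less than the counting error over the class as a whole (1.02-fold, 0.991 to 1.06).

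The comparison of the libraries asked whether the genes differed between the mice, with 1.5-fold as the rule of size for genes at 20 CPM or more in either library. In podocyte-like cells 0 of 3 such genes passed it, beside 1.57% of 6165 genes. Npr3 was 0.824 times as high labelled female as labelled male (0.809 to 0.839) and Ece1 0.841 times (0.776 to 0.912), both below that size. Mesangial-like cells had 0 of 7 genes past it, beside 10.5% of 7080 genes, with ratios from 0.816 for Gucy1b1 (0.727 to 0.916) to 1.11 for Pde5a (0.958 to 1.29). Arterial endothelial-like cells had 0 of 6, beside 14.1% of 7083 genes, with ratios from 0.865 for Edn1 (0.739 to 1.01) to 1.20 for Npr1 (0.895 to 1.61).

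In smooth muscle or renin-like cells 2 of 8 genes passed the rule, beside 28.4% of 7094 genes. Ednrb was 0.497 times as high labelled female (0.307 to 0.783), and Ece1 0.448 times with an interval that included 1 (0.146 to 1.18). Ednra was level there, at 1.02 times (0.749 to 1.38). Glomerular endothelial-like cells had 5 of 9 genes past it, beside 18.1% of 7096 genes. Of these, Gucy1a1 and Gucy1b1 came from the 5 Pdgfrb-positive cells described above, and 84.3% of the Npr3 UMIs labelled female came from the same 5 cells. Edn1 was 0.493 times as high labelled female (0.328 to 0.741). Few cells held most of its UMIs, as given above, and the interval does not cover differences between cells. With each cell thinned to 3000 UMIs, 0 genes of this class passed the rule. Without cells that held markers of another class Edn1 stood at 41.5 and 76.8 CPM. Pde5a was 1.61 times as high labelled female with an interval that included 1 (0.883 to 3.09), and its direction turned without those cells. Ednrb, at 1.28 times (1.11 to 1.48), did not reach the rule with all cells, but it did so without those cells, at 581 and 381 CPM.

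**Figure D4:**
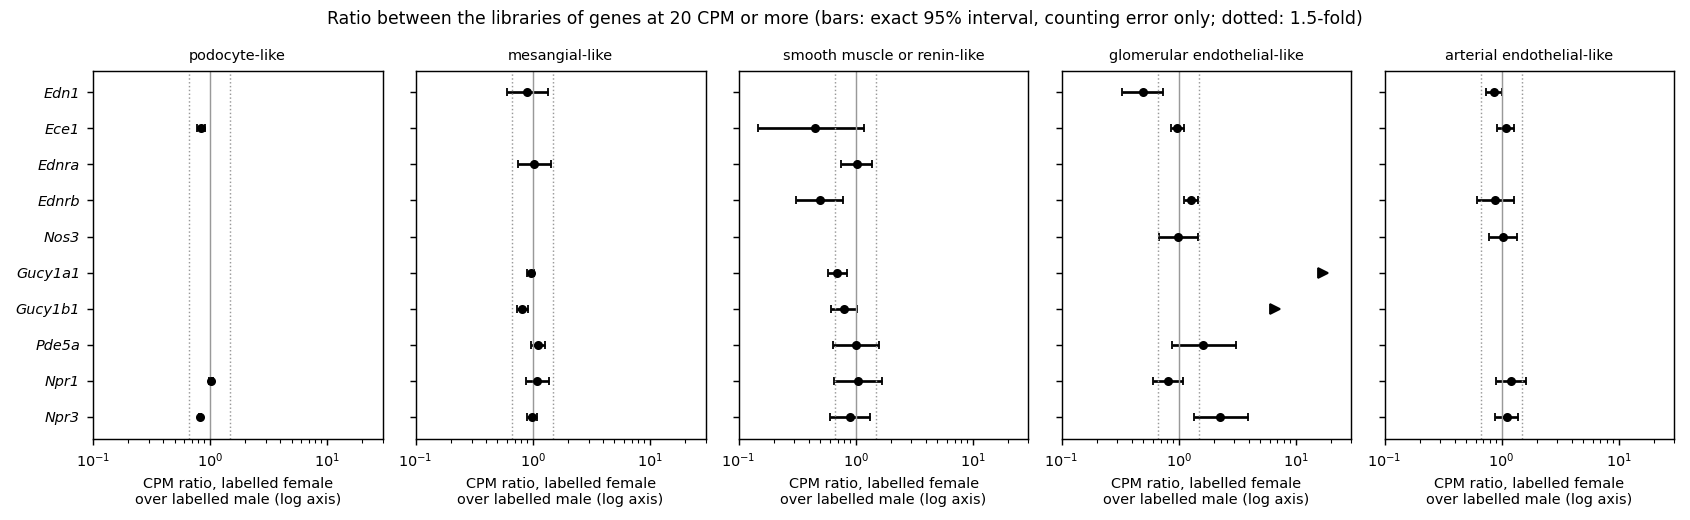
Ratio of the CPM labelled female to the CPM labelled male on a logarithmic axis for each gene at 20 CPM or more in either library, in 5 panels by cell class, with exact 95% intervals. Dotted lines mark 1.5-fold, arrowheads mark the lower end of the interval where the library labelled male had 0 UMIs, and the 2 genes with arrowheads are Gucy1a1 and Gucy1b1 in glomerular endothelial-like cells.

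Of 49 further genes of these pathways, 19 reached 50 CPM in both libraries in at least 1 of the 5 classes. By the lower of their values in the 2 libraries they were highest in podocyte-like cells for 3, mesangial-like for 4, smooth muscle or renin-like for 6, glomerular endothelial-like for 4 and arterial endothelial-like for 2. The share of all genes highest in each class was not computed, so these counts describe the lists only. Of 6 genes for endothelin ligands, processing and clearance, 2 reached that level. Mme, neprilysin, which degrades endothelin and natriuretic peptides, stood at 458 and 460 CPM in podocyte-like cells, the same class as the natriuretic receptors, and at 7.94 and 8.45 CPM in glomerular endothelial-like cells. Furin, a protease that cuts the endothelin precursor before Ece1, stood at 68.6 and 57.7 CPM in glomerular and 66.6 and 62.9 CPM in arterial endothelial-like cells.

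Around nitric oxide synthase, 5 of 13 genes reached the level. Nostrin, which binds the synthase and moves it from the membrane, was at 326 and 451 CPM in glomerular endothelial-like cells, 200 and 321 in mesangial-like cells and 53.9 and 54.9 in arterial endothelial-like cells. Ddah2, an enzyme that removes the synthase inhibitor dimethylarginine, was at 346 and 314 CPM in glomerular and 158 and 126 in arterial endothelial-like cells. Ddah1, the related enzyme, was instead highest in smooth muscle or renin-like cells, where it held 120 and 110 CPM. Cav1, a caveolar protein that holds the synthase inactive, was at 234 and 246 CPM in arterial endothelial-like, 189 and 224 in glomerular endothelial-like, 207 and 152 in smooth muscle or renin-like and 5.28 and 3.69 in mesangial-like cells. Nos1ap was highest in podocyte-like cells, at 60.6 and 63.4 CPM. Of 5 genes for the synthase cofactor tetrahydrobiopterin, 3 reached the level. Gchfr, which represses the first enzyme of that synthesis, was at 315 and 266 CPM in glomerular and 41.1 and 21.7 CPM in arterial endothelial-like cells. Smooth muscle or renin-like cells had no Gchfr UMI, while Pts and Spr, enzymes of the synthesis, lay between 25.6 and 78.1 CPM in every class.

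Downstream of cGMP, 4 of 4 effector genes at the level and 2 of 4 phosphodiesterases were highest in mesangial-like or smooth muscle or renin-like cells. The share of all genes highest in these classes was not computed, so the counts show no excess. Gucy1a2, the alternative alpha subunit, was at 123 and 135 CPM in mesangial-like and 71.7 and 89.5 CPM in smooth muscle or renin-like cells, and was the 1 of 8 other cyclase and natriuretic genes that reached the level. Of 7 cGMP effectors 4 reached it. Prkg1, the main cGMP-dependent kinase of smooth muscle, was at 174 and 197 CPM in mesangial-like and 192 and 162 CPM in smooth muscle or renin-like cells. Prkg2, the membrane-bound kinase, was at 99.8 and 80.0 CPM in smooth muscle or renin-like cells and at no more than 1.23 CPM in the other 4 classes. Mrvi1, a substrate of the kinase that restrains calcium release, was at 399 and 411 CPM in smooth muscle or renin-like and 179 and 195 CPM in mesangial-like cells, and Vasp, another substrate, at 230 and 239 CPM in mesangial-like cells. Of 10 other phosphodiesterases 4 reached the level. Pde3a (520 and 491 CPM) and Pde1a (174 and 164 CPM) were highest in smooth muscle or renin-like cells, and Pde10a in podocyte-like cells, at 139 and 162 CPM. Pde6d, which binds lipid-modified proteins, was highest in glomerular endothelial-like cells, at 125 and 71.8 CPM. Pde5a thus differed from Pde3a and Pde1a in its highest class.

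**Figure D5:**
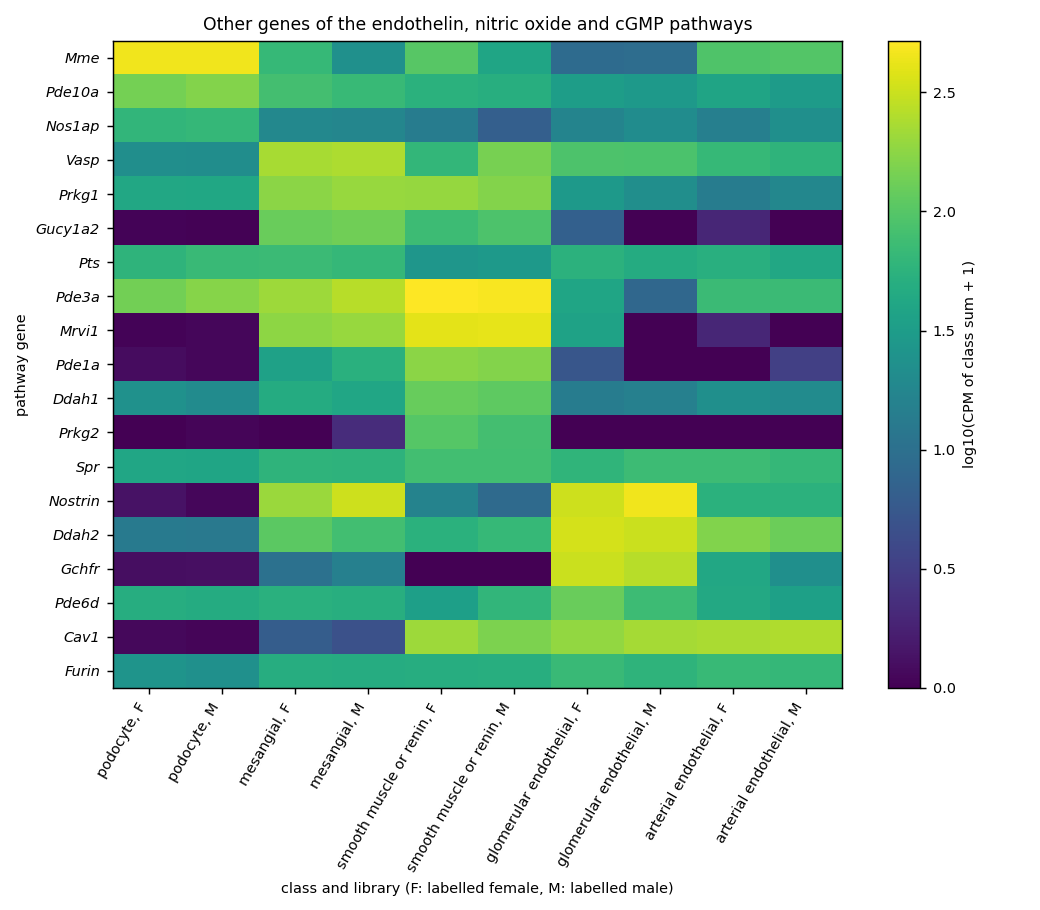
Level of the 19 further pathway genes (vertical axis) in the 5 cell classes of each library (horizontal axis), as colour on a scale of log10(CPM + 1). Prkg2 stands at 99.8 and 80.0 CPM in smooth muscle or renin-like cells and Gchfr at 315 and 266 CPM in glomerular endothelial-like cells.

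Genes with the most similar pattern were found by Pearson's r of log2(CPM + 10) over 12 sums (6 classes in each library, parietal epithelial-like cells included), among 5208 genes. The sums share the libraries and, within a library, the depth, so r is a description. Edn1 was nearest to Glul (r = 0.967), Crybg3 and Trpv4, and Nos3 to Sox17 (0.995), Crispld1 and Mal. Ece1 was nearest to Rhob (0.980), Sox7 and Erg, and Ednrb to Inpp4b (0.969), Tmem2 and Dip2b. Ednra was nearest to Frem2 (0.997), Npy1r and Higd1b. Gucy1a1 was nearest to Hopx (0.998), Itga4 and S1pr3, and Gucy1b1 to Ano1 (0.997), Dock10 and Mrvi1, the last a gene of the pathway lists. Pde5a was nearest to Sept4 (0.982), the carboxypeptidase gene Cpm and Lhfp, Npr1 to Cep85l (0.968), Lpl and Mast4, and Npr3 to Tspan5 (0.965), Fam98b and Tnfaip8. With 1 in place of 10 added to the CPM, 15 of these 30 genes were again among the nearest 3. Pde5a, Npr1 and Npr3 kept 3 of 3 and Gucy1b1 kept 2. Edn1, Ece1, Ednra and Gucy1a1 kept 1 each, and Nos3 and Ednrb kept 0.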

How the data were processed

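The deposited tables hold UMI counts per gene and barcode, which the authors made with Cell Ranger 6.1.2 and STAR 2.7.5a on mm10, per the submitters' processing notes. How barcodes were chosen, the annotation and the strand setting were not stated in the sources used here. The tables hold 5233 and 4974 barcodes with 67648465 and 57841860 UMIs. Cells were kept at up to 20% mitochondrial counts and at least 500 genes, scaled to 10000 UMIs, and clustered (scanpy 1.11.5, Leiden, resolution 1, 30 components of 2000 variable genes) without the 10 genes and the pathway lists. Of 17 clusters, 5 were left unnamed by a rule on markers that was set after the clusters were seen. Scrublet called 3 and 1 cells as doublets, so it did not work here and no cell was removed by it.

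Counts were summed per class and library and given as CPM. Poisson and Clopper-Pearson intervals and conditional binomial intervals of ratios were computed at 95% (scipy 1.17.1). The Poisson and ratio intervals were tested on simulated independent Poisson counts. That test checks the computation and does not cover UMIs that gather in few cells. All the intervals cover only counting error, and 0 counts were read as allowing up to 3. All 10 genes are named, pathway genes at 50 CPM in both libraries, and the 3 nearest genes of each. The genes and lists were chosen with earlier results of these data known. Alternatives covered cell filters, clustering, typing, doublets, thinning and scaling (edgeR 4.0.16 for TMM).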

Additional observations from a re-analysis of the deposited data

How the results depend on the processing

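The classes were rebuilt or rescaled in 13 ways. Ece1, Ednrb, Gucy1a1, Pde5a, Npr1 and Npr3 had the same highest class in both libraries in 13 of 13. Edn1 and Nos3 did in 12, since at resolution 0.5 no separate arterial cluster formed, which gives no count over 5 classes. Ednra did in 12, being highest in mesangial-like cells labelled female when each cell was typed by marker score. Gucy1b1, whose classes were not separated as first clustered, did in 9. Resolution 0.5 counts among the 13 for Ece1 but was no check of it, since its next class, the arterial one, was absent there. Typing each cell by marker score was the setting that moved most levels, 18 of 63 by over 1.5-fold. It gave 4 genes that were 4-fold above the next class and 5 genes past 1.5-fold in smooth muscle or renin-like cells. In these cells it lowered Ednra, Gucy1a1 and Gucy1b1 as given above, Ednrb to 7.84 and 35.8 CPM and Pde5a to 14.6 and 27.0 CPM. It raised Npr1 there to 168 and 142 CPM and Npr3 to 409 and 470 CPM. In glomerular endothelial-like cells, where 5 genes passed 1.5-fold, the count was 3 at resolution 0.5, by marker score and without cells that hold markers of another class, 2 when the top 5% of cells by doublet score were dropped, 1 as the mean CPM of cells and 0 after thinning to 3000 UMIs. In arterial endothelial-like cells, where 0 passed, it was 2 without cells that hold markers of another class, and 1 at a mitochondrial limit of 10%, at resolution 1.5, with the pathway genes kept in the clustering, without those top 5%, after thinning and with no minimum level. With no minimum level 4 genes passed in podocyte-like and 2 in mesangial-like cells, where 0 had. TMM scaling moved none of the 63 levels by over 1.5-fold. Naming whole clusters by their best marker score, an alternative chosen after seeing the data, moved none either. The smallest class held 43 and 62 cells, which limits its intervals. No paired analysis was possible because each group is 1 library.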
